A study of Canis lupus familiaris with 6 samples.

Results

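The constitutive proteasome genes, the subunits of the protease that every cell uses and the factors that assemble or activate it, were measured in RasV12-expressing epithelial cells grown by themselves or among normal neighbours. The group was defined by gene name: array probes named PSMA, PSMC, PSMD or PSMG, PSMB1 to PSMB7, PSME3, PSME4, PSMF1 or POMP, with the brightest probe standing for each gene. The array held 38 such genes among 34378 different gene names or accessions, and 37 of them gave a signal that could be tested. PSMA8, the testis form of an alpha subunit, was well above background on 0 of 6 arrays and was not tested. The names PSMA1, PSMA4, PSMC6, PSMF1 and PSMG1 had no probe under that symbol, and all but PSMA1 had a probe identified only by its description.

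The cells were MDCK-pTR GFP-RasV12, a derivative of the canine kidney epithelial line MDCK in which tetracycline switches on a GFP-tagged, constitutively active Ras. In the alone group (3 arrays) this line was the only cell in the dish, and in the mixed group (3 arrays) it was grown with normal MDCK cells, which outnumbered it 10 to 1 according to the protocol. The source label of mixed replicate 2 gives a ratio of 100 in place of 10. Both groups received tetracycline for 24 h on collagen-coated plastic, so both expressed RasV12, and GFP-positive cells were collected by flow cytometry before total RNA was extracted. The extraction text of the labels names a β-catenin mutant line, whereas the titles and source names describe RasV12 cells without it. Nothing states that replicates came from separate cultures, so p-values measure the spread between these samples, which may be technical.

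The proteasome degrades proteins that carry ubiquitin chains. Its 20S core is a barrel of stacked rings, in which alpha subunits form the outer gates and beta subunits the inner rings, and PSMB5, PSMB6 and PSMB7 are the beta subunits that cut peptide bonds. The 19S cap consists of a base, whose PSMC ATPases unfold the substrate beside ubiquitin receptors and scaffolds, and a lid, which contains the deubiquitinase that removes ubiquitin chains. Dedicated chaperones build each piece, and in cells exposed to interferon the catalytic subunits can be replaced by PSMB8, PSMB9 and PSMB10 to give the immunoproteasome.

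Each probe on the array is a stretch of 60 bases that pairs with the labelled transcript. The probes of 4 genes that differ most plainly between the groups are given first, because their signal is what the comparison rests on. Coordinates are those of the canFam3 grid in the scanner files, and the exon or untranslated region at each position was not annotated here. The PSMD12 probe lies at chr9:13170082-13170141 on the plus strand. The PSMD6 probe lies at chr20:27210564-27210732 on the plus strand and spans 169 bases of genome, more than its own length. The PSME3 probe lies at chr9:20188225-20188284 and the PSMB1 probe at chr12:72447699-72447758, both on the minus strand.
PSMD12: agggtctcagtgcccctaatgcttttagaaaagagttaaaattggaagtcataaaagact
PSMD6: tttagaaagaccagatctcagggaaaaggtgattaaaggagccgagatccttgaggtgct
PSME3: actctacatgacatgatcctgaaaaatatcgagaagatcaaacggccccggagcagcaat
PSMB1: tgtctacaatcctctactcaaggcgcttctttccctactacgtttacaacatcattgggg

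Values below are log2 of the processed intensity minus the 75th percentile of the same array, so 0 is the level of a fairly bright probe and negative values are dimmer ones. This percentile lay between 592 and 700 intensity units on the 6 arrays, and 60.8% to 66.4% of probes were well above background. Because 1 slide carried the 3 alone arrays and a second slide the 3 mixed arrays, a slide effect and the effect of the neighbours cannot be told apart. A lower signal in a sorted population can mean fewer cells with the transcript or less transcript per cell, which these data do not separate. Epithelial markers were present, with CDH1, EPCAM, KRT18, CDH16 and PAX8 all detected and 0 of the 5 past the test. Of 8 leukocyte, endothelial and fibroblast markers, the defining leukocyte marker PTPRC and the endothelial marker CDH5 were well above background on 0 of 6 arrays. DCN was so on 1 array. CD14, PECAM1, COL1A1 and COL1A2 were well above background on all 6 arrays and CD3E on 5, so signal for such markers was not absent. These 5 markers could be tested, and 0 passed.

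Proteasome genes were mostly lower in the RasV12 cells taken from mixed culture. Of the 37 tested genes, 30 had a lower mean in the mixed group, where 50.6% of all tested probes did. The median difference, mixed minus alone, was -0.14 on the log2 scale for the proteasome genes and -0.00 over all 26535 tested probes. With limma and Benjamini-Hochberg adjustment over all of those probes, 7 proteasome genes fell and 0 rose, against a background of 5.72% of probes called lower and 5.5% called higher. At an unadjusted p under 0.05, the methods' t-test put 19 below, where it put 14.6% of all tested probes, and 1 above, where it put 12.9%. In 20 of the 37 genes every mixed array lay below every alone array, where 19.4% of all tested probes did so, and in 2 genes every mixed array lay above, where 17.8% did. The differences were small: the largest was -0.58 log2 units. The median replicate SD was 0.083 for the proteasome genes and 0.129 over all tested probes. The shares of all tested probes called or without overlap were not matched for this smaller spread.

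**Figure D1:**
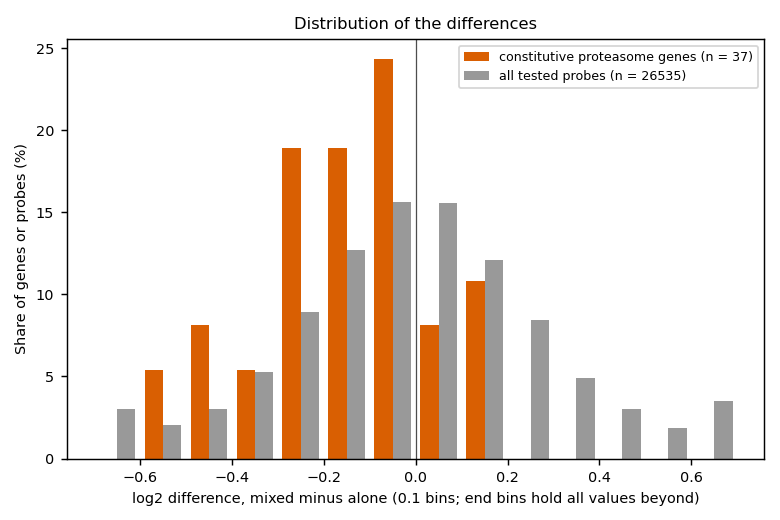
Share (%) of the 37 constitutive proteasome genes (orange) and of all 26535 tested probes (grey) in bins of the log2 difference, mixed minus alone; the end bins hold all values beyond them. Of the proteasome genes 24.3% lie in the bin just below 0 and 0.0% above 0.2, whereas the distribution of all probes is centred near 0.

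The 7 genes that passed belong to 5 of the 8 roles. They are the lid subunits PSMD12 and PSMD6, the core subunits PSMB1 and PSMA5, the cap chaperones PSMD5 and PSMD10, and the nuclear activator PSME3. When the shared replicate number was used as a block, the count was 4 genes (PSMD12, PSMD6, PSME3 and PSMD5, background 5.31% called lower) and the other 3 had adjusted p of 0.0521 (PSMB1), 0.0687 (PSMD10) and 0.0738 (PSMA5) by limma. Leaving out alone replicate 2, alone replicate 3, mixed replicate 2 or mixed replicate 3 left 0 proteasome genes past the threshold. Those fits called 0.09%, 0.0263%, 0.0338% and 0.045% of all tested probes in that order. Without mixed replicate 1 the count was 3, all lower (background 3.76%). Without alone replicate 1 it was 11, of which 9 were lower (background 13.8%) and 2 higher (background 12.6%). The median difference stayed between -0.17 and -0.11 in these 6 fits.

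In the lid, the part of the cap that carries the deubiquitinase, PSMD12 had the largest difference of all 37 genes. Its log2 values were 1.26, 1.41 and 1.37 on the alone arrays and 0.64, 0.81 and 0.87 on the mixed arrays. The groups did not overlap, and the gap between the lowest alone and the highest mixed array was wider than either group's range. The difference was -0.58 (SE 0.09, limma adjusted p = 0.0193), a signal that fell by 32.9%. On the scanner's own scale PSMD12 read 1486, 1865 and 1672 intensity units alone and 982, 1142 and 1084 mixed, so the order was present before scaling.

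PSMD6, a neighbouring lid subunit, read 3.81, 3.85 and 3.80 alone and 3.35, 3.46 and 3.37 mixed. Its replicates lay close together in both groups (SD 0.03 and 0.06), and the difference was -0.43 (SE 0.07, limma adjusted p = 0.0212). The other 9 non-ATPase subunits did not pass, although all 11 differences in this role were negative, where 50.6% of all tested probes were below 0. In 7 of the 11 genes every mixed array lay below every alone array, where 19.4% of all tested probes did so. The 9 that did not pass ran from -0.28 in PSMD7, the lid partner of the deubiquitinase PSMD14, to -0.04 in PSMD4, a ubiquitin receptor of the base. PSMD4 turned to 0.03 under quantile normalization. PSMD14 itself, which strips ubiquitin chains from the substrate, differed by -0.14 (limma adjusted p = 0.248). The large base scaffolds PSMD1 and PSMD2 differed by -0.08 and -0.09.

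Of the PSMC ATPases, the motor of the cap, none of the 5 with a probe under their symbol passed. In all of them the groups overlapped, and their median difference was -0.08. PSMC1 had the lowest difference, -0.11 (limma adjusted p = 0.374), and PSMC5 the highest, 0.14 (limma adjusted p = 0.353), which was -0.02 under spike-in scaling. PSMC5 read 3.29, 2.97 and 3.09 alone and 3.27, 3.24 and 3.27 mixed, so alone replicate 1 lay above the mixed arrays and the groups overlapped. The difference between the ATPases and the other cap subunits was not itself tested.

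In the core, the structural beta subunits were lower on every mixed array. All 4 of them had no overlap between groups, where 19.4% of all tested probes were lower without overlap. Their median difference was -0.28, and PSMB1 passed the test, where 5.72% of all tested probes were called lower. PSMB1 read 6.30, 6.20 and 6.22 alone and 5.75, 5.95 and 5.71 mixed, and its highest mixed value came from the array labelled with the ratio of 100. The difference was -0.43 (SE 0.09, limma adjusted p = 0.0335), a signal that fell by 25.9%. PSMB3 came next at -0.37 (limma adjusted p = 0.0576). It passed with spike-in scaling (limma adjusted p = 0.0430), quantile normalization (0.049998) and normexp background correction (0.0263), but not with the replicate block (0.0755). PSMB4 had the smallest difference of the role, -0.17 (limma adjusted p = 0.227).

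None of the 3 catalytic beta subunits passed the test. PSMB5, which carries the chymotrypsin-like activity, read 5.19, 5.03 and 5.05 alone and 4.91, 4.96 and 4.91 mixed. These groups did not overlap, but the difference of -0.16 (SE 0.07) had a limma adjusted p of 0.189. PSMB6, with the caspase-like activity, read 6.91, 6.67 and 6.68 alone and 6.72, 6.74 and 6.59 mixed. PSMB7, with the trypsin-like activity, read 4.44, 4.23 and 4.25 alone and 4.28, 4.22 and 4.20 mixed. Both overlapped between groups, with differences of -0.07 (limma adjusted p = 0.644) and -0.08 (limma adjusted p = 0.579). In all 3 catalytic genes the highest value was that of alone replicate 1, and without it PSMB6 differed by 0.01.

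Of the alpha ring, which gates entry to the core, 4 of 5 tested genes had all mixed arrays below all alone arrays, and 1 passed. Among all tested probes, 19.4% lay below without overlap and 5.72% were called lower. PSMA5 read 5.56, 5.40 and 5.39 alone and 5.06, 5.19 and 5.10 mixed, a difference of -0.33 (SE 0.08, limma adjusted p = 0.0486). PSMA2, PSMA3 and PSMA6 lay within a narrow range of differences, -0.22, -0.21 and -0.21, and did not pass (limma adjusted p = 0.0786, 0.0862 and 0.0934). PSMA7 was the exception at 0.08 (limma adjusted p = 0.579), and its probes are taken up further on.

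**Figure D2:**
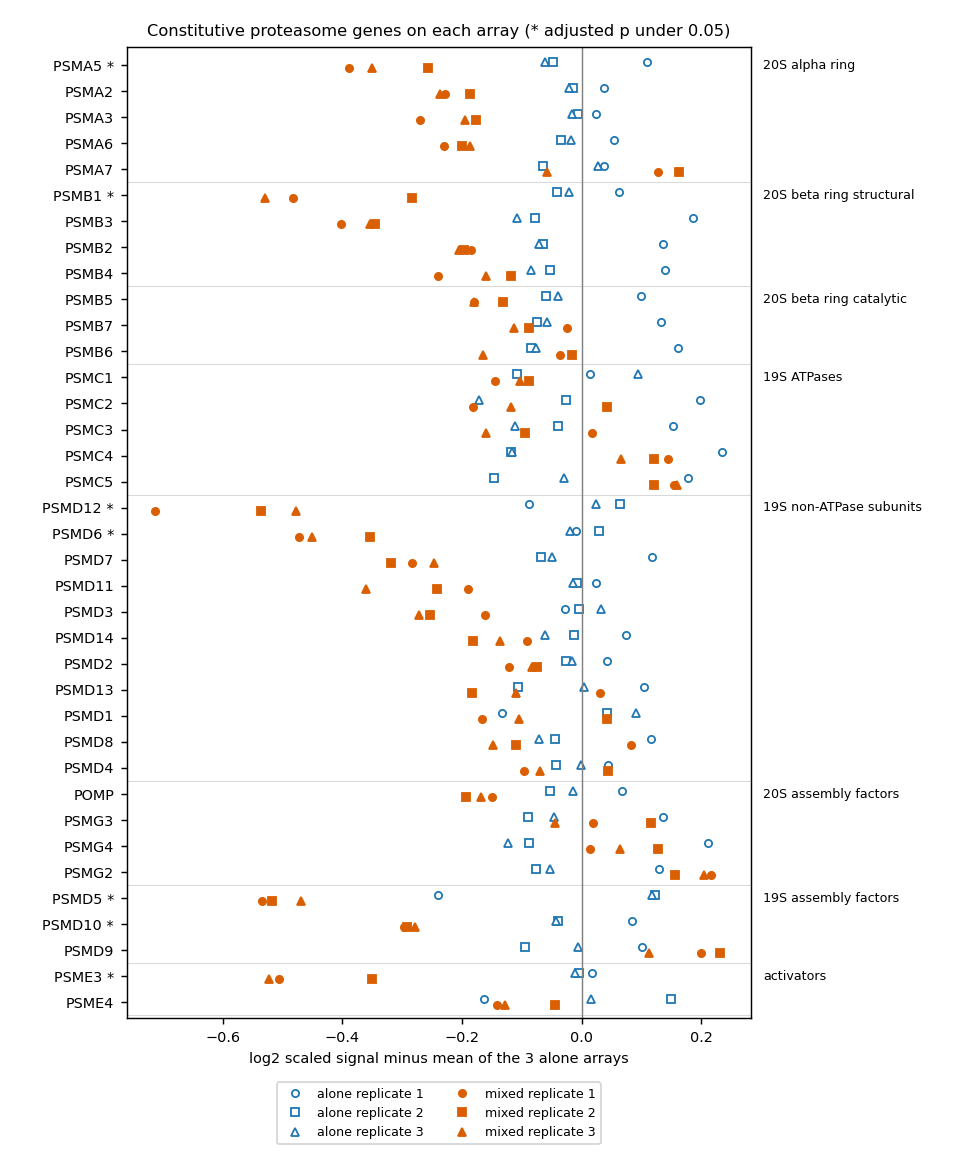
Log2 scaled signal of each of the 37 tested genes on each array, minus the mean of the 3 alone arrays of that gene, grouped by role; open blue symbols are alone arrays, filled orange symbols mixed arrays, and shapes mark the replicate number. The 7 genes with a star (limma adjusted p under 0.05) have all mixed arrays to the left of all alone arrays, as do 13 others without a star, and alone replicate 1 is often the rightmost alone array.

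The assembly factors fall into those of the core and those of the cap. For the 20S core, the 4 tested genes had a median difference of 0.05, which became -0.11 under spike-in scaling, and 0 passed. POMP, which accompanies the maturing core, was the only one below 0, at -0.17 (limma adjusted p = 0.147). PSMG2, part of the pair that starts the alpha ring, read 3.99, 3.78 and 3.80 alone and 4.07, 4.01 and 4.06 mixed. All its mixed arrays lay above all its alone arrays, but the difference of 0.19 had a limma adjusted p of 0.164. PSMG3 and PSMG4, partners in ring assembly, differed by 0.03 (limma adjusted p = 0.849) and 0.07 (limma adjusted p = 0.701), and both were below 0 under spike-in scaling (-0.13 and -0.09).

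Of the 3 chaperones of the cap base, 2 fell and 1 did not pass, where 5.72% of all tested probes were called lower. PSMD5, which binds an ATPase pair during assembly, read -1.38, -1.02 and -1.03 alone and -1.68, -1.66 and -1.61 mixed. It fell by 0.51 on the log2 scale (SE 0.11, limma adjusted p = 0.0393), and here alone replicate 1 was the lowest of its group. PSMD10, also called gankyrin and known as an oncoprotein that binds the retinoblastoma protein, read 1.21, 1.08 and 1.08 alone and 0.82, 0.83 and 0.84 mixed. It fell by 0.29 (SE 0.07, limma adjusted p = 0.0476). PSMD9, the third chaperone of the base, read 2.15, 1.95 and 2.04 alone and 2.24, 2.28 and 2.16 mixed, with no overlap and the opposite sign. Its difference of 0.18 did not pass (limma adjusted p = 0.184) and was 0.02 under spike-in scaling.

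Among activators that cap the core in place of the 19S particle, PSME3 was lower and PSME4 did not pass. PSME3, the PA28 gamma ring of the nucleus, read 1.42, 1.40 and 1.39 alone and 0.90, 1.05 and 0.88 mixed. The alone arrays agreed within an SD of 0.015, and the difference was -0.46 (SE 0.08, limma adjusted p = 0.0217), a signal that fell by 27.3%. PSME4, the PA200 activator linked to histone turnover, differed by -0.10 (limma adjusted p = 0.503) with overlapping groups.

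**Figure D3:**
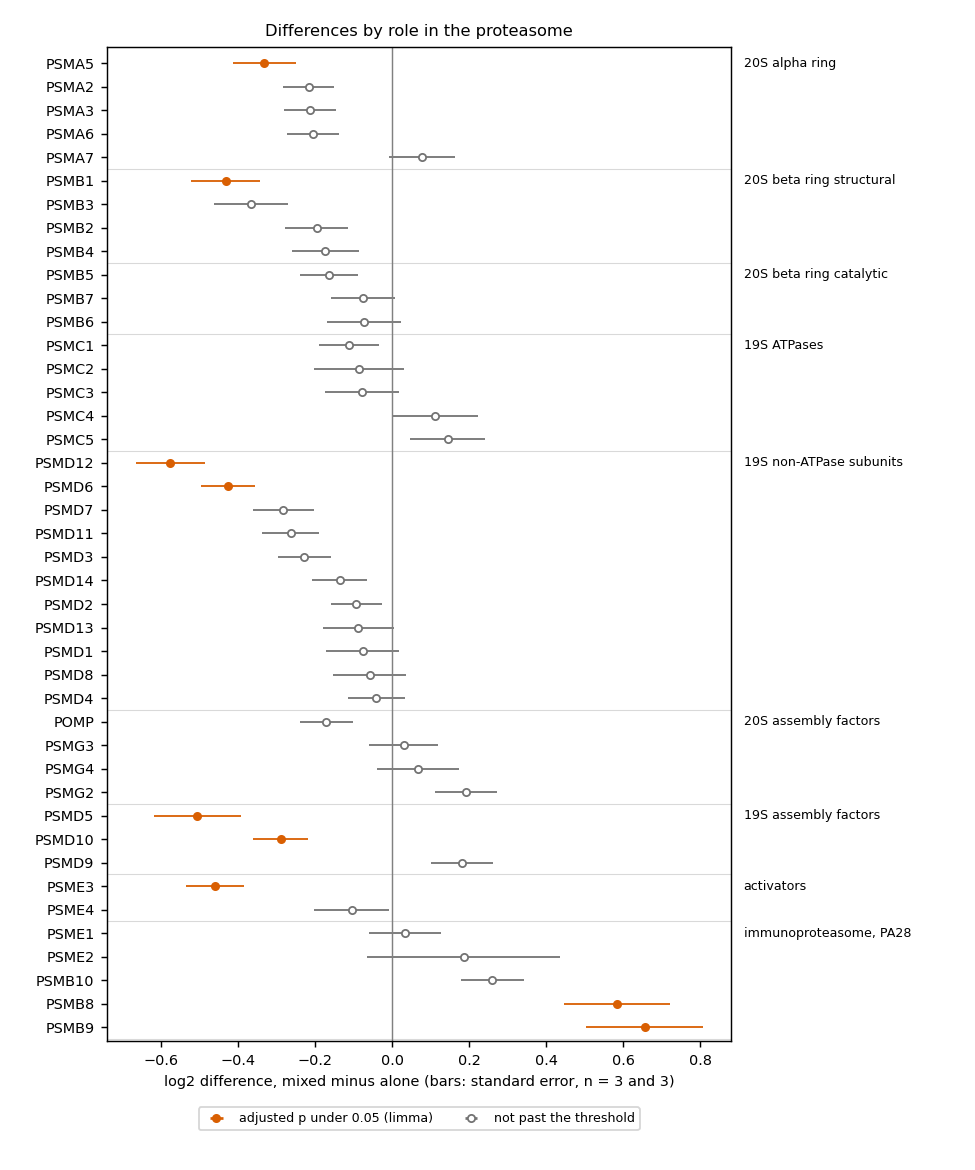
Log2 difference, mixed minus alone, with its standard error (3 arrays against 3) for the 37 constitutive genes by role and, in the bottom block, for the 5 immunoproteasome and PA28 alpha-beta genes; filled orange points have a limma adjusted p under 0.05. The filled constitutive genes lie between -0.58 and -0.29, and the filled immunoproteasome genes PSMB8 and PSMB9 lie at 0.58 and 0.66.

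Of the genes named only in a probe description, PSMC6, an ATPase of the cap, was lower in mixed culture. It read 1.29, 1.42 and 1.33 alone and 1.09, 0.99 and 1.06 mixed. The difference was -0.30 (SE 0.07, limma adjusted p = 0.0479), and the replicate block gave an adjusted p of 0.0763. PSMF1, the PI31 regulator, differed by -0.16 (limma adjusted p = 0.275), PSMA4 by -0.08 (limma adjusted p = 0.540) and PSMG1, the partner of PSMG2, by 0.02 (limma adjusted p = 0.905). These 4 are not among the 37.

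Several probes of a gene allow a check on the choice of the brightest. Of the 13 genes with more than 1 tested probe, 11 had the same sign at all of them. PSMA5 and PSMD10 passed at 1 of 2 probes each, and their second probes gave -0.27 (limma adjusted p = 0.0832) and -0.24 (limma adjusted p = 0.0805). PSMD9 was above 0 at all 3 probes, between 0.04 and 0.18, and PSME4 ranged from -0.13 to 0.03 over 4.

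PSMA7, an alpha subunit, was the widest exception, with 0.44 log2 units between its lowest and highest probe. The brightest probe read 6.63, 6.53 and 6.62 alone and 6.72, 6.75 and 6.53 mixed, with overlapping groups and a difference of 0.08. A second probe read 6.21, 6.05 and 6.01 alone and 5.79, 5.65 and 5.74 mixed, a difference of -0.36 (SE 0.08, limma adjusted p = 0.0442). The third probe read 6.86, 6.72 and 6.62 alone and 6.38, 6.40 and 6.46 mixed, a difference of -0.32 (SE 0.09, limma adjusted p = 0.0587). So 2 of the 3 PSMA7 probes had the sign of the rest of the alpha ring, without overlap between groups, and the mean over the 3 gave -0.20 (limma adjusted p = 0.126).

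The 3 PSMA7 probes are shown because they read different stretches of the same gene on the minus strand of chromosome 24. The probe at -0.36 lies at chr24:46185199-46185810 and spans 612 bases of genome. The probe at -0.32 lies at chr24:46182524-46182890 and spans 367 bases. The brightest probe lies at chr24:46182341-46182400, downstream of both, and 30 of its 60 bases are given, with the hexamer AATAAA in capitals.
PSMA7 at -0.36: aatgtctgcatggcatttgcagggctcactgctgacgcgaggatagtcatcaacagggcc
PSMA7 at -0.32: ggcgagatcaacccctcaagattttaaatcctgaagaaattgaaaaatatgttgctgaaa
PSMA7 at 0.08: cgtgtgtcctgcAATAAAtttgtttgttga
AATAAA is the usual polyadenylation signal, read here on the probe's own strand only, and it occurs in 8.67% of all 43603 probes and in 7 of the 59 probes of the proteasome genes. The match is a description of these letters.

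**Figure D4:**
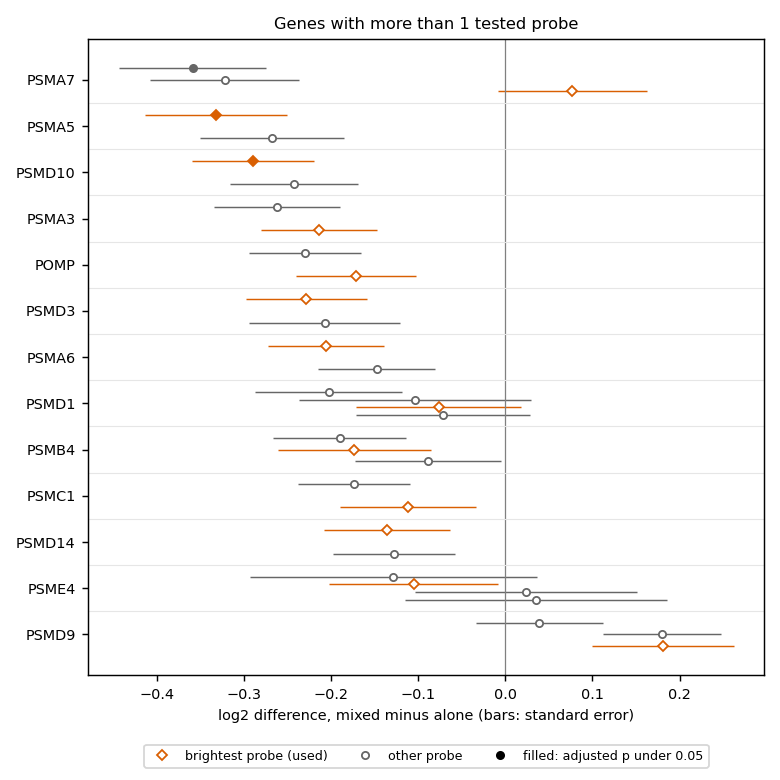
Log2 difference, mixed minus alone, with its standard error for every tested probe of the 13 genes that have more than 1; orange diamonds are the brightest probes used above, grey circles the others, and filled symbols have a limma adjusted p under 0.05. PSMA7 has 1 probe to the right of 0 and 2 to the left, and the other genes hold their probes within 0.163 log2 units.

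The arrays within a group did not stand level. Relative to each gene's mean over the 6 arrays, the median proteasome gene was 0.16 higher on alone replicate 1, 0.03 and 0.05 higher on alone replicates 2 and 3, and 0.09, 0.07 and 0.09 lower on the mixed arrays. Alone replicate 1 was the highest of its group for 30 of 37 genes. Mixed replicate 2, labelled with the ratio of 100, was the highest of its group for 20 genes.

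Of the immunoproteasome and PA28 alpha-beta genes 2 rose, where 5.5% of all tested probes were called higher. All 5 differences were above 0, where 50.6% of all tested probes were below 0. PSME1 was below 0 under spike-in scaling, and PSME1 and PSME2 were below 0 without alone replicate 2. PSMB8 read -0.84, -1.31 and -1.18 alone and -0.38, -0.64 and -0.55 mixed, and rose by 0.58 (SE 0.14, limma adjusted p = 0.0448). PSMB9 read 3.99, 3.39 and 3.60 alone and 4.34, 4.30 and 4.30 mixed, and rose by 0.66 (SE 0.15, limma adjusted p = 0.0426). Neither call was firm: spike-in scaling gave limma adjusted p of 0.0726 for PSMB8 and 0.0548 for PSMB9, and both missed the threshold whenever an array other than alone replicate 1 was left out. PSMB10 differed by 0.26 without overlap (limma adjusted p = 0.0840), and by 0.10 under spike-in scaling (limma adjusted p = 0.577). The PA28 alpha and beta genes PSME1 and PSME2, whose ring activates this form, differed by 0.03 (limma adjusted p = 0.839) and 0.19 (limma adjusted p = 0.651). PSME1 was at -0.13 under spike-in scaling. The second PSME2 probe gave -0.13, while alone replicate 2 of the first lay low at 5.14 beside 6.15 and 5.95.

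The balance of each replaceable subunit against its constitutive counterpart was tested on the ratio within each array. The log2 ratio of PSMB8 to PSMB5 was 0.75 higher in the mixed group (SD 0.15 alone and 0.16 mixed, 3 arrays each), a 1.68-fold difference. That of PSMB9 to PSMB6 was 0.73 higher, or 1.66-fold, and that of PSMB10 to PSMB7 was 0.34 higher, or 1.26-fold. In all 3 pairs every mixed array lay above every alone array. The exact two-sided permutation test gave p = 0.1 for each of the 3 pairs and 0.1 after adjustment over them, which is the smallest value that 3 arrays against 3 allow. A ratio within an array does not depend on the scaling between arrays, and says nothing of which gene of the pair moved.

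**Figure D5:**
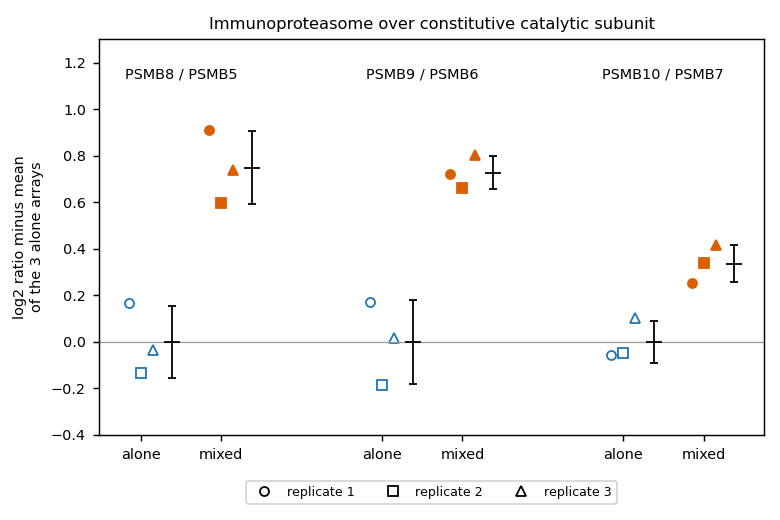
Log2 ratio of the immunoproteasome subunit to the constitutive catalytic subunit on each array, minus the mean of the 3 alone arrays, for 3 pairs; open blue symbols are alone and filled orange symbols mixed arrays, shapes mark the replicate, and black bars give the mean and SD. The mixed means lie 0.75, 0.73 and 0.34 above the alone means, with no overlap in any pair.

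Genes that work beside the proteasome were read from lists outside the group. Of 9 tested proteins that bind it, 2 fell and 0 rose, where 5.72% of all tested probes were called lower and 5.5% higher. The 2 were the deubiquitinases of the cap UCHL5, by 0.35 (SE 0.07, limma adjusted p = 0.0345), and USP14, by 0.35 (SE 0.08, limma adjusted p = 0.0380). With the replicate block UCHL5 kept its call (limma adjusted p = 0.0475) and USP14 did not (limma adjusted p = 0.0521). UBA6, an enzyme that activates ubiquitin, fell by 0.35 (SE 0.07, limma adjusted p = 0.0356). It was the only one of the 4 tested ubiquitin and activating-enzyme genes to pass, beside the same 5.72% called lower. With the replicate block its limma adjusted p was 0.0577, so none of the 4 passed there. The mean over probes gave UBA6 -0.27 (limma adjusted p = 0.116) and USP14 a limma adjusted p of 0.0530. Quantile normalization gave UCHL5 a limma adjusted p of 0.0800. UCHL5, USP14 and UBA6 all missed the threshold under spike-in scaling. None of the 8 tested shuttle receptors and cofactors of the unfoldase VCP passed. NFE2L1, the transcription factor that raises proteasome genes when the proteasome is inhibited, differed by -0.21 (limma adjusted p = 0.297), and none of the 4 genes of its list passed.

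A list of Ras output genes was read beside these results. Of 11 tested genes that respond to Ras and MAPK signalling, 3 fell and 1 rose, where 5.72% of all tested probes were called lower and 5.5% higher. CCND1, EPHA2 and FOSL1 fell, by 0.59, 0.71 and 0.52 (limma adjusted p = 0.0366, 0.0242 and 0.0193), and EGR1 rose by 0.77 (limma adjusted p = 0.0157). The median of the list was -0.49, or -0.17 with normexp background correction. CCND1 missed the threshold with the replicate block (limma adjusted p = 0.0633), and EPHA2, FOSL1 and EGR1 passed with it. The part of these genes in the proteasome result was not tested.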

How the data were processed

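Total RNA of 6 samples of GFP-positive cells was labelled with Cy3 and hybridised by the authors to 1-colour Agilent canine arrays of 60-base probes. The deposited scanner files hold the processed signal intensity of each spot, which Agilent Feature Extraction, named in the submitters' processing notes, had background-subtracted and corrected for trends across the slide, on a canFam3 probe grid. The authors also deposited a table of log2 values, which covers 26529 probes, all among those tested here, and on each array lies within 0.01 of log2 of that intensity minus the 75th percentile for at least 26527 of them.

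Here control spots were left out, spots of a probe were averaged over 43603 probes, log2 was taken and the 75th percentile of each array subtracted. Testing was limited to the 26535 probes called well above background by every array of one group or of both. Mixed and alone arrays were compared with limma 3.58.1 (lmFit and eBayes, two-sided, R 4.3.3), with Benjamini-Hochberg adjustment over all tested probes and a threshold of 0.05. The script was tested on simulated data. Subunit ratios were tested by exact permutation over arrays. The deposited files hold no counts, and precision is limited by the number of arrays.

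Each slide held 1 group, so a slide block could not be fitted. Replicate number equals position on the slide. Same-numbered arrays of the groups deviated together (r between 0.16 and 0.35 over probes, each pair above 0.1). The pairing was not clean: alone replicate 2 with mixed replicate 3 gave r = 0.24, above the 0.16 of the pair numbered 2. Alone replicate 3 with mixed replicate 2 gave 0.09, and the other pairs of unlike number were negative. The fit with the number as a block is given where it changes the call of a named gene or a count.

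The genes, lists and tests were chosen with earlier results of these data known. Named with values were the catalytic subunits, the assembly factors, activators and PSMF1, every gene past the threshold, the extremes of each role, NFE2L1 and the immunoproteasome genes, and other-list genes past the threshold. PSMB3, PSMD7, PSMD14, PSMD1, PSMD2, PSMA2, PSMA3 and PSMA6 were named after their values were seen.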

Additional observations from a re-analysis of the deposited data

How the results depend on the processing

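All 7 constitutive genes that passed kept their direction in 16 of 16 alternatives. These were another normalization, background correction, scaling, filter, probe rule, test, value table or replicate block, and leaving out each array. Direction could not change in some of them. The filters, the t-tests and the replicate block use the same mean difference, and the deposited table holds nearly the same values. The mean over probes changes nothing for a gene with 1 tested probe. Few kept their call: PSME3 passed in 11, PSMD6 in 10, PSMD12 in 9, PSMB1 and PSMD5 in 8, PSMD10 in 6 and PSMA5 in 5. The count of 7 was 4 with the replicate block, 3 with spike-in scaling (2.45% of all tested probes called lower), 3 with the methods' t-test after adjustment (1.89%) and 20 before it, 12 with normexp background correction (7.52%), and 0 without the filter on dim probes, where 12 of 43603 probes passed. Leaving out each array in turn gave 0 to 11 genes. The count was 7 with the deposited table (5.73%), the filter for all 6 arrays (6.13%) and quantile normalization (5.8%), and 5 with the mean over probes (4.73%). Under quantile normalization 6 of the 7 genes of the main fit kept their call. There PSMA5 did not pass (limma adjusted p = 0.0629) and PSMB3 did (limma adjusted p = 0.049998). Of the 3 genes called with spike-in scaling 2 were among the 7 of the main fit, as were 2 of the 3 with the adjusted t-test. Spike-in scaling moved the median difference from -0.14 to -0.30 and that of all tested probes by -0.16. The median difference was nearer to no change under quantile normalization, at -0.095, and with normexp background correction, at -0.108. The median over all tested probes was then -0.001 and 0.018. Relative to the 75th percentile, the group mean of each spike-in used was 0.10 to 0.24 higher for the mixed arrays. Averaged over the spike-ins, the mixed arrays stood at 1.98, 1.99 and 1.87. The alone arrays stood at 1.97, 1.64 and 1.74, so alone replicate 1 lay within the range of the mixed group. PSMB8 passed in 6 and PSMB9 in 7 of the 16, both with the replicate block. UCHL5 passed in 7 of the 16, and USP14 and UBA6 in 6 each. The cause of the lost calls was not tested.

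Differences near 0 turned sign in 12 of the 480 values computed for 30 named genes. Under spike-in scaling PSMG3 was -0.13, PSMG4 -0.093, PSMC5 -0.016, PSMA7 -0.084 and PSME1 -0.13. The mean over probes put PSMA7 at -0.20, and quantile normalization put PSMD4 at 0.028. Leaving out each array in turn gave PSMB6 -0.11 to 0.0079 (above 0 without alone replicate 1), PSMG3 -0.015 to 0.098 (below 0 without alone replicate 2, and -0.013 without mixed replicate 2), PSME1 -0.011 to 0.11 and PSME2 -0.12 to 0.39 (both below 0 without alone replicate 2). The 3 subunit ratios kept their direction in the 12 alternatives run for them. Spike-in scaling and the replicate block leave a mean ratio difference unchanged, and the deposited table nearly so, so these could not reverse it. The mean over probes changed only that of PSMB9 to PSMB6. The exact permutation p within replicate pairs was 0.25 for each ratio, the smallest that 3 pairs allow.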
